A study of Mus musculus with 4 samples.

Results

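The question addressed here is how far the response of cultured bone marrow cells to heme depended on Bach1. It was read as an interaction, which is the heme response of wild-type cells minus the heme response of cells labelled Bach1 knockout, on the log2 scale for each gene. An interaction of 1 therefore means that heme raised the gene 2 times more, or lowered it 2 times less, in wild type. All 4 arrays of the series enter it. Of 19938 genes measured, 11155 had a signal of at least 30.96, the median over all probe sets and arrays, on at least 1 array and were used.

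Bone marrow cells of mice on the B6 background, either wild type or Bach1 -/-, were grown for 6 days in medium with 10% serum and 20 ng/ml of GM-CSF, a growth factor for macrophages, granulocytes and dendritic cells. They then received heme at 40, in a unit the labels print as µm and which is read here as micromolar, or vehicle, which was 0.15 M NaCl with 10% NH4OH. Floating cells were discarded, and RNA came from the adherent cells 24 hours after treatment. The 4 groups were wild type with vehicle, wild type with heme, Bach1 -/- with vehicle and Bach1 -/- with heme. The labels name no allele beyond Bach1 -/- and no age or number of mice.

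With a single array in each group there are no replicates, errors or p-values, and every value describes these 4 cultures. The median signal per array lay between 30.4 and 31.4, and Pearson's r between any pair of arrays over the genes used lay between 0.975 and 0.981. The files give no scan date or batch. The Bach1 probe set read 212 and 264 in wild type with vehicle and heme and 211 and 204 in the labelled knockout, and it does not check the labels, because its position relative to the deletion is not stated in what was used here. Macrophage markers were bright on every array, with Csf1r from 813 to 1118, Adgre1 from 753 to 937 and Itgam from 1431 to 1772. The dendritic cell marker Itgax read 547 to 1340 and the neutrophil marker Ly6g 59.2 to 179. Markers of T cells (Cd3e, 20.2 to 27.9), natural killer cells (Ncr1, 5.94 to 7.33) and mast cells (Cpa3, 8.26 to 13.1) stayed under the median on all 4 arrays. Col1a1 of fibroblasts (37.8 to 51.7) and Pecam1 of endothelium (39.4 to 66.7) lay just above it. In such mixed cultures a lower signal can mean fewer cells of a type or less RNA per cell, and these cannot be told apart.

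Bach1 is a transcriptional repressor that pairs with small Maf proteins and sits on Maf recognition and antioxidant response elements, the same elements that the activator NRF2 uses. Heme binds Bach1 directly, which takes it off DNA and leads to its breakdown, so genes it holds down become active when heme accumulates. Heme oxygenase 1, the iron exporter ferroportin and the macrophage factor SpiC are known from macrophages that clear red cells.

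Spic, Hmox1 and Slc40a1 shared a single pattern, in which wild-type cells with vehicle were low and the other 3 cultures were high. Of 11 red pulp macrophage markers used, only these 3 had an interaction of 1 or more (0.879% of all genes used). The median of that list was -0.21, with 7 of 11 below 0 (54.4% of all genes used). Il6, Cxcr2 and Tnfrsf9 had another pattern, in which wild-type cells with heme were high and both labelled knockout cultures stayed lower. The C1q chains were highest in wild type with vehicle. The NRF2 target genes, the proteasome and Me1 responded to heme in both genotypes.

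Interactions were less frequent and smaller than the sum of the 2 heme responses. An interaction of 1 or more was found for 98 of 11155 genes (0.879%) and of -1 or less for 130 (1.17%). The sum of the 2 heme responses uses the same 4 arrays with weights of the same size, and it passed 1 in size for 884 genes (7.92%). A large response in 1 genotype alone can carry this sum past 1, as for Hmox1 (sum 2.63, with 0.19 in the labelled knockout). Responses of 2-fold or more in both genotypes numbered 45 higher (0.403%) and 16 lower (0.143%). The sum of the 2 genotype differences passed 1 in size for 664 genes (5.95%). Equal noise on the arrays would give all 3 quantities the same spread. The robust SD over genes, which is scaled from the median absolute deviation, was 0.32 for the interaction, 0.45 for the heme sum and 0.39 for the genotype sum. The median interaction was -0.03, with 45.6% of genes above 0 and 54.4% below. At 4-fold or more, 10 genes were higher (0.0896%) and 3 lower (0.0269%). The 5 of these higher genes that carry a name are Spic, Phtf1os, Nos2, Hmox1 and Cib3, and the lower ones are Ms4a7, Polr2k and C1qa. The remaining 5 are small RNAs or carry only a clone name. Among all genes past the threshold, 22 of 98 and 22 of 130 were predicted genes, small RNAs or other classes that are counted here and not named.

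The share of genes past the threshold depended on signal. In the dimmest of 4 equal groups of genes by mean signal, 4.59% had an interaction of at least 1 in size, followed by 2.15%, 0.968% and, in the brightest, 0.466%. The share past the threshold for the heme sum was 7.35%, 7.31%, 7.6% and 9.43% in the same order. The spread of the interaction fell from 0.41 to 0.23 across these groups while that of the heme sum stayed between 0.43 and 0.46. At least 1 array was below the median for 56 of the 98 higher genes (57.1%) and 62 of the 130 lower ones (47.7%), against 13.7% of all genes used. Of the genes described below for their responses, Spic, Nos2, Cenpw, Prtn3, C1qa, Ms4a7, Mthfd2, Serpinb10, Myo1d, Zfp580, Treml4, Bex1 and Tfrc were below the median on 1 array. Polr2k, Phtf1os, Adgre4, Zfp931, Qpct, Me1, Gsta3, Nqo1, Uchl1 and Nr4a3 were below it on 2, and Il6, Id3, Cib3, Ms4a6c, Ciart and Abcb6 on 3. In the brightest group only 8 genes were higher and 5 lower. The higher ones were Hmox1, Slc40a1, Ankrd37, Cxcl2, Scd1 and Cspp1 with 2 small RNAs, and the lower ones were P2ry6, Tnip3, Rnase6, Plbd1 and Mien1 (Cspp1 and the 5 lower genes were chosen after their values were seen).

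**Figure D1:**
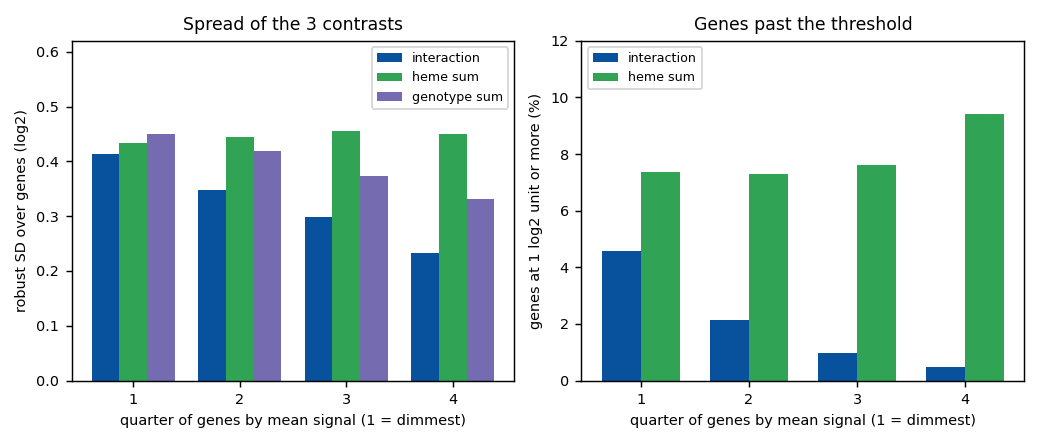
Left, robust SD over genes (log2) of the interaction, the heme sum and the genotype sum in 4 equal groups of genes from dimmest to brightest mean signal; right, percentage of genes at 1 log2 unit or more for the interaction and the heme sum. The interaction bars shrink with signal, from 4.59% to 0.466% of genes, and the heme sum bars do not.

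The threshold itself marked no gap in the values. Ly6i (1.0035) and Poc1a (1.0027) lay just inside it on the higher side, and H2-Q5 (0.9999) and Mmachc (0.9990) just outside. On the lower side Gbp11 (-1.0012) and Nupl2 (-1.0027) were inside and Ms4a6d (-0.9998) and Arv1 (-0.9993) outside. Marco, a scavenger receptor of macrophages described below, also fell just short.

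Calling a gene on the difference between its 2 heme responses favours responses of opposite sign, so the next counts only describe the called genes. Of the 98 higher genes, 82 responded to heme with opposite signs in the 2 genotypes, and the same held for 97 of the 130 lower genes. No single heme response reached 2-fold in 56 of the higher and 67 of the lower genes. For these genes opposite signs follow from the call itself, because 2 such responses of the same sign cannot differ by 1. The share of opposite signs over all genes used is not given here. Opposite responses of at least 1.5-fold in each genotype were found for 14 genes, against 322 with responses of that size in the same direction. No gene responded 2-fold or more in opposite directions.

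**Figure D2:**
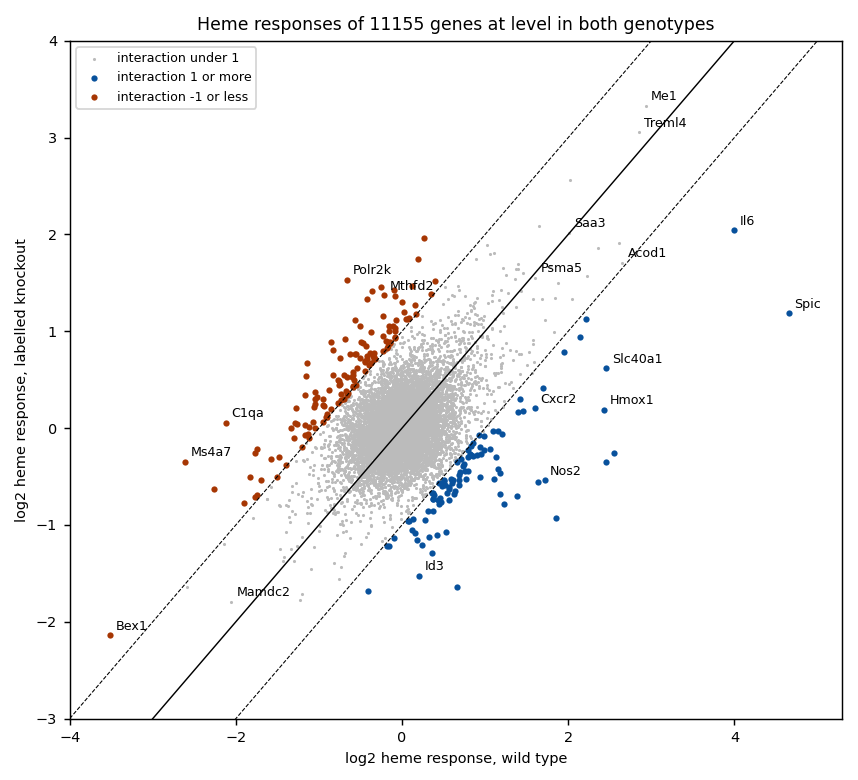
Log2 heme response of 11155 genes in wild type (horizontal axis) against the labelled knockout (vertical axis); the solid line marks equal responses, the dashed lines an interaction of 1 and -1, and coloured points lie beyond them. Spic, Il6, Slc40a1 and Hmox1 lie far right of the diagonal, Me1 and Treml4 close to it at the top, and most coloured points sit near the dashed lines.

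Called genes were grouped by the array that stood apart. An array was taken to carry the value when its distance to the nearest of the other 3 was at least 50% of the range over the 4 log2 values, and the sign of the interaction then follows from which array it is. Among the 98 higher genes, wild type with vehicle was alone low for 16, wild type with heme alone high for 19, labelled knockout with vehicle alone high for 13 and labelled knockout with heme alone low for 4. For the other 46, more than 1 array contributed. Among the 130 lower genes the counts were 20 for wild type with vehicle high, 22 for wild type with heme low, 24 for labelled knockout with vehicle low and 18 for labelled knockout with heme high, with 46 shared.

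**Figure D3:**
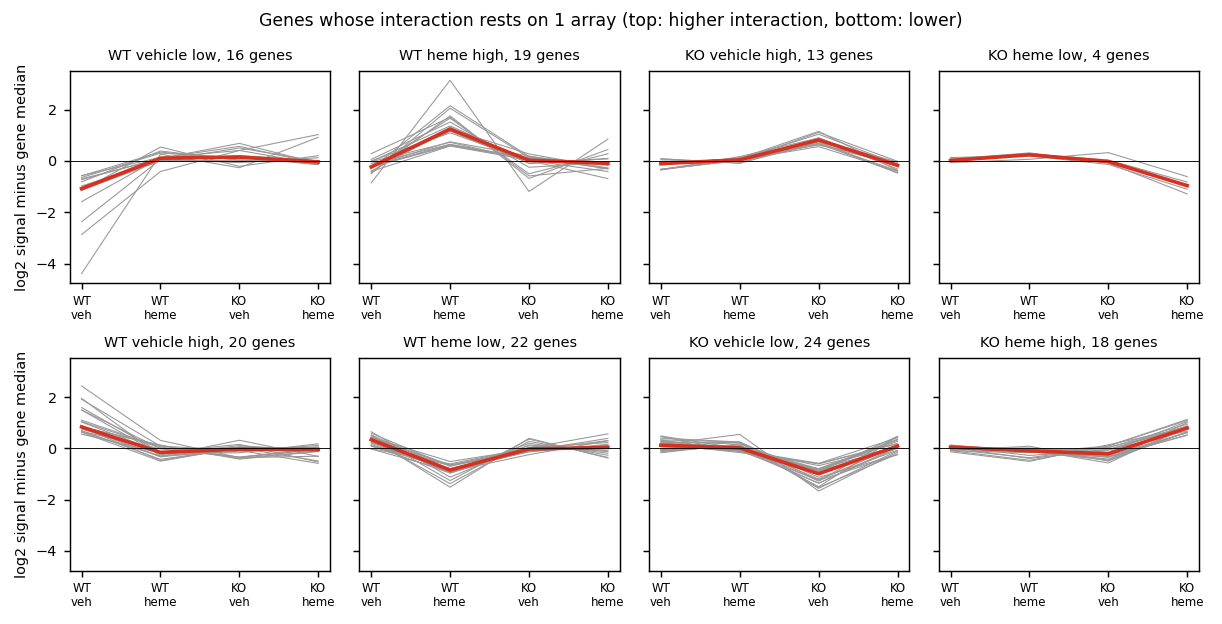
Log2 signal on the 4 arrays (WT, wild type; KO, labelled knockout; veh, vehicle) minus the gene's median, for called genes in which 1 array stands apart; thin lines are genes and the thick line their median. The 8 groups hold 4 to 24 genes, and the deepest departures are in the 16 genes with wild type and vehicle alone low.

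Genes of heme and iron handling were among the 16 with wild type and vehicle alone low. Spic, the factor that red pulp macrophages of the spleen need, read 17.0 in wild type with vehicle and 429 with heme, and 298 and 679 in the labelled knockout. Only wild type with vehicle was under the median of all values. The heme response was 4.66 and 1.19 for wild type and labelled knockout, an interaction of 3.47 or 11.1-fold, which depends on that low signal and became 2.13 when 32 was added to every signal before log2. The labelled knockout with vehicle had already covered 88.7% of the wild-type step from vehicle to heme on the log2 scale. Spic was 2-fold or more higher with heme in both genotypes.

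Hmox1, the enzyme that opens the heme ring and frees its iron, read 1827 and 9881 in wild type and 9047 and 10330 in the labelled knockout. Wild type with vehicle was again the low array, and the other 3 lay close together. The responses were 2.44 and 0.19, and the interaction was 2.24 (4.74-fold). These 3 high values lay between the 99.90 and 99.96 percentile of all probe sets, so a smaller response in the labelled knockout and a ceiling of the array cannot be told apart for this gene.

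Slc40a1, which encodes ferroportin, the only known exporter of iron from cells, read 52.7 and 290 in wild type and 512 and 787 in the labelled knockout. Both labelled knockout cultures lay above both wild-type ones. The responses were 2.46 and 0.62, giving an interaction of 1.84 (3.57-fold), and labelled knockout cells with vehicle were at 133% of the wild-type step. Slc48a1, the transporter that moves heme out of the phagolysosome, read 418, 1113, 845 and 1242 in the order wild type vehicle, wild type heme, labelled knockout vehicle and labelled knockout heme, which is the order used for all 4 values below. Its interaction of 0.86 did not reach the threshold. Marco, at 115, 342, 605 and 898, reached 0.999 with the same arrangement as Slc40a1.

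Other genes of this group belong to other functions. Nos2, the inducible nitric oxide synthase, read 24.4, 80.2, 97.8 and 67.3, with wild type and vehicle below the median, responses of 1.71 and -0.54 and an interaction of 2.25. Cenpw, a centromere protein, read 29.8, 63.9, 89.8 and 62.5 (interaction 1.62). Ankrd37, a gene known for its induction in low oxygen, read 123, 243, 281 and 240 (interaction 1.21). Cib3, with signals of 9.61, 22.5, 33.9 and 19.7, is near the low end of the array. In these 4 genes the labelled knockout with vehicle was the highest of all cultures, and heme was followed by a lower signal there.

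**Figure D4:**
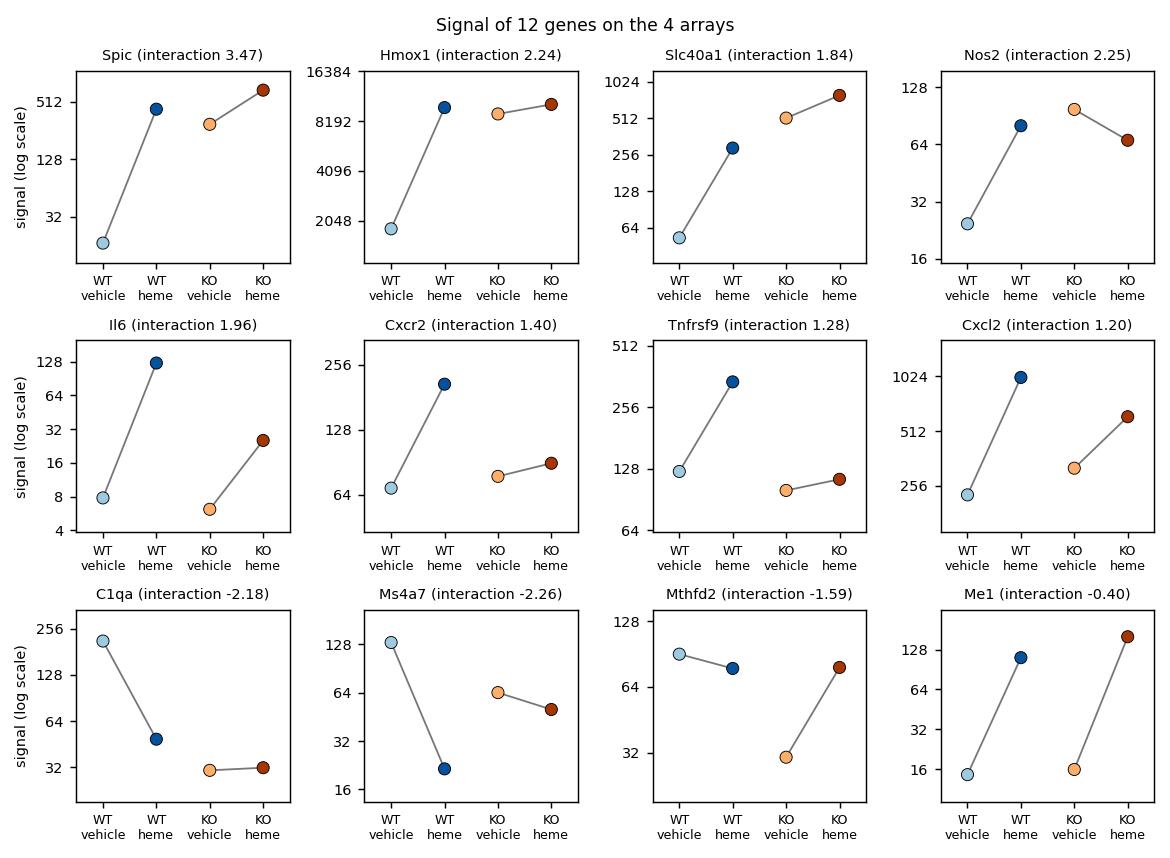
Signal (log scale, which differs between panels) of 12 genes on the 4 arrays, with a line joining vehicle and heme within a genotype and the interaction above each panel. In the top row wild type with vehicle is the low point, in the middle row wild type with heme is the high point, and the bottom row holds C1qa, Ms4a7 and Mthfd2 with lower interactions and Me1 with parallel responses.

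Inflammatory genes were among the 19 with wild type and heme alone high. Il6, a cytokine of acute inflammation, read 7.77, 124, 6.15 and 25.3, with responses of 4.0 and 2.04, with 3 of the 4 arrays under the median. Cxcr2, the receptor that draws neutrophils to CXC chemokines, read 68.7, 209, 77.9 and 89.6. Tnfrsf9, a costimulatory receptor of the TNF receptor family, read 124, 340, 100.1 and 114. The interactions were 1.96, 1.40 and 1.28, and for Cxcr2 and Tnfrsf9 the labelled knockout with heme stayed near both vehicle cultures.

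Cxcl2 and Cxcl3, chemokines that act on Cxcr2, followed in part. Cxcl2 read 229, 1007, 320 and 613 and Cxcl3 52.0, 240.4, 44.3 and 96.7. Both were higher with heme in both genotypes, by 2.14 and 0.94 for Cxcl2 and by 2.21 and 1.13 for Cxcl3. Their interactions were 1.20 and 1.08, and wild type with heme was the highest culture for both.

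The inflammatory mediators on the list held 26 genes used. Of these, 4 had an interaction of 1 or more (0.879% of all genes used) and none of -1 or less (1.17%). These were Nos2, Il6, Cxcl2 and Cxcl3, and the list's median interaction was 0.46 against -0.03 over all genes. The median heme response of the list was 0.84 and 0.31 for wild type and labelled knockout. Values above 0 were found for 17 of 26 (45.6% of all genes used), among them Acod1 (0.94), which makes itaconate, the chemokine Ccl5 (0.87), and the cytokines Il1a (0.68) and Tnf (0.51). Il1b (-0.14) and the acute-phase gene Saa3 (-0.01) had nearly equal responses. The other 9 of the 26 were below 0, down to -0.74 among the cytokines and -0.72 among the chemokines.

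Part of the neutrophil marker list leaned the same way. Of 15 used, 2 had a higher interaction (0.879% of all genes used). They were Cxcr2 and the granule protease Prtn3 (1.26, with signals 21.2, 48.7, 38.0 and 36.4). With 32 added to every signal, Prtn3 (0.63) was short of the threshold. The list's median was 0.27, with 10 markers above 0 (45.6% of all genes used) and 5 below. The 3 receptors had a median of -0.17. In wild type 5 markers were 2-fold or more higher with heme (1.15% of all genes used), and none in the labelled knockout (1.18%). The summed signal of the marker list was 17459 in wild type with vehicle, 21206 with heme, 16840 in labelled knockout with vehicle and 18516 with heme. S100a8 (-0.04), S100a9 (-0.03) and Ly6g (-0.17) had close to equal responses. Whether the share of neutrophils took part in the inflammatory differences was not tested.

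The labelled knockout arrays carried the other higher interactions that rest on a single array, 13 with vehicle high and 4 with heme low. Id3, an inhibitor of helix-loop-helix factors, read 15.5, 17.9, 37.2 and 12.9, with the labelled knockout and vehicle alone above the median (interaction 1.73). Gal, which encodes the neuropeptide galanin, read 182, 215, 163 and 70.9, with labelled knockout and heme alone low (1.44). Scd1, a fatty acid desaturase, belonged to the same group at 1.03.

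Macrophage surface and complement genes were among those with lower interactions. C1qa, a chain of complement C1q, read 213 in wild type with vehicle, 48.9 with heme, and 30.6 and 31.9 in the labelled knockout. Wild type with vehicle was the only high culture. The responses were -2.12 and 0.06, and the interaction was -2.18. C1qb read 322, 90.6, 80.7 and 56.9 (interaction -1.33), and C1qc 911, 295, 170.1 and 103 (-0.90). The 3 chains, which assemble into 1 protein, kept the same order of wild type with vehicle first and wild type with heme next.

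Fcgr1, the high-affinity receptor for IgG, read 237, 83.3, 84.7 and 59.7, at the edge of the threshold with -1.0037. Ms4a7, a membrane protein of macrophages, read 131, 21.5, 64.1 and 50.3, and its interaction of -2.26 drew on both wild-type arrays. Ms4a6c of the same family (68.6, 20.5, 26.3 and 22.7; -1.53) and Qpct, a glutaminyl cyclase (112, 23.4, 36.2 and 23.4; -1.63), were alone high in wild type with vehicle. For Ms4a6c all arrays but wild type with vehicle were below the median.

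Of 23 macrophage core genes used, these 4 (Ms4a7, C1qa, C1qb and Fcgr1) had an interaction of -1 or less (1.17% of all genes used). None had 1 or more (0.879%). The count of 4 became 3 with 32 added to every signal, with a repeated quantile normalization and with lowess centring. The list's median was -0.24, and 17 of 23 were below 0, as were 54.4% of all genes used. The defining markers Csf1r (-0.32), Adgre1 (-0.18), Itgam (-0.24) and Cd68 (-0.28) were within 0.4 of equal responses. The summed signal of the list was 40554, 34783, 40959 and 37566.

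Usp6nl, an activator of Rab GTPase activity, was alone low in wild type with heme, as were the zinc finger genes Zfp931 (-1.70) and Zfp580 (-1.51). It read 123, 50.9, 88.2 and 102, an interaction of -1.49. P2ry6, the receptor for UDP, read 612, 218, 417 and 340 (-1.19), also lowest in wild type with heme.

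In the largest of the lower groups, labelled knockout with vehicle was alone low. Mthfd2, a mitochondrial folate enzyme, read 90.6, 77.9, 30.5 and 78.7, with responses of -0.22 and 1.37 and an interaction of -1.59. Serpinb10, a serine protease inhibitor of myeloid cells, read 40.7, 49.1, 15.8 and 61.6 (-1.69). Tnip3, an inhibitor of NF-kB signalling, read 331, 359, 105 and 289 (-1.35), and Rnase6, an antimicrobial ribonuclease, read 331, 331, 98.5 and 244 (-1.31). In each of these 4 genes the labelled knockout was more than 2-fold higher with heme, and wild type differed little. Myo1d (-1.75) and Ciart (-1.68) stood in this group through their brighter probe set, and their other probe set gave -0.39 and -0.66.

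Labelled knockout with heme stood alone high for 18 genes. Klra2, a receptor of the Ly49 family, read 81.0, 62.3, 92.0 and 183 (-1.37), and Adgre4, an adhesion receptor of macrophages, had the largest interaction of the group at -1.71. Abcb6, a porphyrin transporter and the only gene of the heme and iron list with a lower interaction, read 27.8, 28.3, 25.3 and 58.0 (-1.17). All arrays of Abcb6 but this 1 were below the median.

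Many heme responses were kept in the labelled knockout. Genes 2-fold or more higher with heme in both genotypes numbered 45 (0.403%), and 16 were lower in both (0.143%). The interaction was under 0.5 in size for 32 of the 45 and 11 of the 16, and the median interaction was -0.01 and -0.09. Only Spic, Il6 and Cxcl3 of the 45 and Bex1 of the 16 passed the interaction threshold, all with the larger response in wild type. Bex1, with a signal of 9.41 in wild type with heme, had an interaction of -1.37, which became -0.21 with 32 added. Of 128 genes 2-fold or more higher in wild type (1.15% of those used), 45 (35.2%) were so in the labelled knockout, 67 were higher there by less and 16 were not higher. The labelled knockout had 132 such genes (1.18%), of which the 45 are 34.1%. For the 96 genes lower in wild type (0.861%) and the 49 lower in the labelled knockout (0.439%), the shared 16 are 16.7% and 32.7%.

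Me1, the malic enzyme that supplies NADPH, showed the largest kept response. It read 14.6, 111, 15.9 and 160.0, with responses of 2.93 and 3.33. Treml4, a receptor of red pulp macrophages, read 16.4, 118, 39.3 and 328 (2.85 and 3.06), while Slc40a1 and Hmox1 of the same marker list responded by 0.62 and 0.19 in the labelled knockout. Saa3 read 153, 616, 88.9 and 359, with responses of 2.01 and 2.02. Il1f9 (interaction 0.71), Layn (0.50), Uchl1 (-0.53) and Acod1 (0.94) were also kept. Among the lower genes, Mamdc2 read 777, 187, 966 and 279 (-2.06 and -1.79), and Bex1, the gene with the lowest response, read 107, 9.41, 181 and 41.1 (-3.51 and -2.14).

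The antioxidant genes that NRF2 activates kept their response as a group. Of 27 used, none had an interaction of 1 or more in size (2.04% of all genes used). At that share a list this short can hold none. The median response was 0.70 and 0.68 for wild type and labelled knockout. In wild type 8 were 2-fold or more higher with heme (1.15% of all genes used), and in the labelled knockout also 8 (1.18%). These were not all the same genes, since Slc7a11 responded by 1.53 and 0.78. Gclm, the regulatory subunit of the first enzyme of glutathione synthesis, read 188, 777, 326 and 820, with responses of 2.05 and 1.33. Labelled knockout with vehicle was between the wild-type cultures, at 38.8% of the step. Gsta3, a glutathione transferase, read 21.1, 66.5, 28.6 and 122 (1.65 and 2.09). The quinone reductase Nqo1 (interaction 0.38), the cystine carrier Slc7a11 (0.75) and the autophagy adaptor Sqstm1 (0.24) also responded in both genotypes.

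The 250 bases upstream of 4 genes are shown because they put a pattern of each kind side by side. They are Spic (wild type with vehicle alone low; chr10:88683024-88683273, minus strand), Gclm (chr3:122245307-122245556, plus strand) and Gsta3 (chr1:21240335-21240584, plus strand) with kept responses, and C1qb (wild type with vehicle alone high; chr4:136886201-136886450, minus strand). The sequences are from RefSeq, build GRCm38.p6, and run 5′ to 3′ on the strand of the gene up to its start. Capitals mark matches to the antioxidant response element TGACNNNGC on either strand. The match begins 134 bases upstream of the start in Gclm, 121 in Gsta3 and 103 in C1qb, and Spic has no match.
Spic: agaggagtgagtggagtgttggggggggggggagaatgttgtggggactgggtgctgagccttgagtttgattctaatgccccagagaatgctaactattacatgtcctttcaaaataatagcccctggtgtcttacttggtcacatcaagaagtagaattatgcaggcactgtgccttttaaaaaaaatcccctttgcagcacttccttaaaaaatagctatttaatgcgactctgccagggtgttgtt
Gclm: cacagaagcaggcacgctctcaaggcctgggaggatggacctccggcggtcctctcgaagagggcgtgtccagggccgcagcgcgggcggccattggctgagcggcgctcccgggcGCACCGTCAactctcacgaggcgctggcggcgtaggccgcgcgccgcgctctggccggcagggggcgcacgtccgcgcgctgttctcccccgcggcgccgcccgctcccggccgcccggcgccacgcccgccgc
Gsta3: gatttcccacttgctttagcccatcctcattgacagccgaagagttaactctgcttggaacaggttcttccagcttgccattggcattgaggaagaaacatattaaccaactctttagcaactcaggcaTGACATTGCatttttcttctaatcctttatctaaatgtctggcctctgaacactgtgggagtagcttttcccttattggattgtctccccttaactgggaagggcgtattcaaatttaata
C1qb: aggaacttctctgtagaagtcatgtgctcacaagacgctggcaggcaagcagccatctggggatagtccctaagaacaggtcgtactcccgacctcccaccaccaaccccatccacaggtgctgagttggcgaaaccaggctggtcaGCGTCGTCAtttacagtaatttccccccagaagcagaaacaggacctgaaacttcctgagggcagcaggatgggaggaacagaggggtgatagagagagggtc

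The same letters were counted in the promoters of each set. TGACNNNGC stood in 7 of the 65 promoters at hand for genes with a higher interaction (10.8%), in 14 of 92 for a lower interaction (15.2%) and in 6 of 37 for kept increases (16.2%), against 13.9% of 8963 genes used and 10.2% of all 32851 promoters of that length in the table. The 6 kept genes are Gclm, Gsta3, Procr, Psmc6, Sec24d and Siglece. The Maf recognition element GCTGAGTCA stood in 0, 1 and 1 of these sets (0.48% of genes used, 0.39% of all promoters). The AP-1 element TGANTCA, whose letters lie within that element, stood in 4, 7 and 2 (5.55% of genes used, 6.75% of all promoters). Of 16 genes with wild type and vehicle alone low, 8 had a promoter at hand, and none held any of these 3 motifs. Hmox1, Slc40a1 and Nos2 are not among those 8. A match is only a match of letters in this window.

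The proteasome, the complex that degrades tagged proteins, responded in both genotypes with a tilt. Of 31 subunits used, 8 passed a 2-fold increase with heme in wild-type cells (1.15% of all genes used). In the labelled knockout 21 did (1.18%). The median responses of 0.82 and 1.16 lay on either side of the cutoff of 1, so the counts differ more than the responses do. No subunit passed the interaction threshold (2.04% of all genes used). Of the 31 subunits, 27 lay below 0 (54.4% of all genes used), with a median of -0.30. Psmc5, an ATPase of the 19S cap, read 324, 598, 209 and 701 (-0.86), and Psmb7, a catalytic subunit of the core, read 317, 503, 225 and 624 (-0.80). Psma5, in contrast, read 600.3, 1818, 680.2 and 1994, with an interaction of 0.05. For Psmc5 and Psmb7, the labelled knockout cultures were the lowest with vehicle and the highest with heme.

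Genes of glycolysis and the hypoxia response leaned the other way. Of 20 used, 18 lay above 0 (45.6% of all genes used) and 1, Ankrd37, had an interaction of 1 or more (0.879%). The median interaction was 0.32, with median responses of 0.22 and -0.24 for wild type and labelled knockout. The prolyl hydroxylase Egln3 read 928, 1200, 1568 and 1036 (interaction 0.97), Ndrg1 271, 374, 349 and 255 (0.92), and the mitophagy receptor Bnip3 1925, 2539, 2399 and 1820 (0.80). In all 3 genes wild type was higher with heme and the labelled knockout was lower with heme. The factor Hif1a itself was at 0.08.

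**Figure D5:**
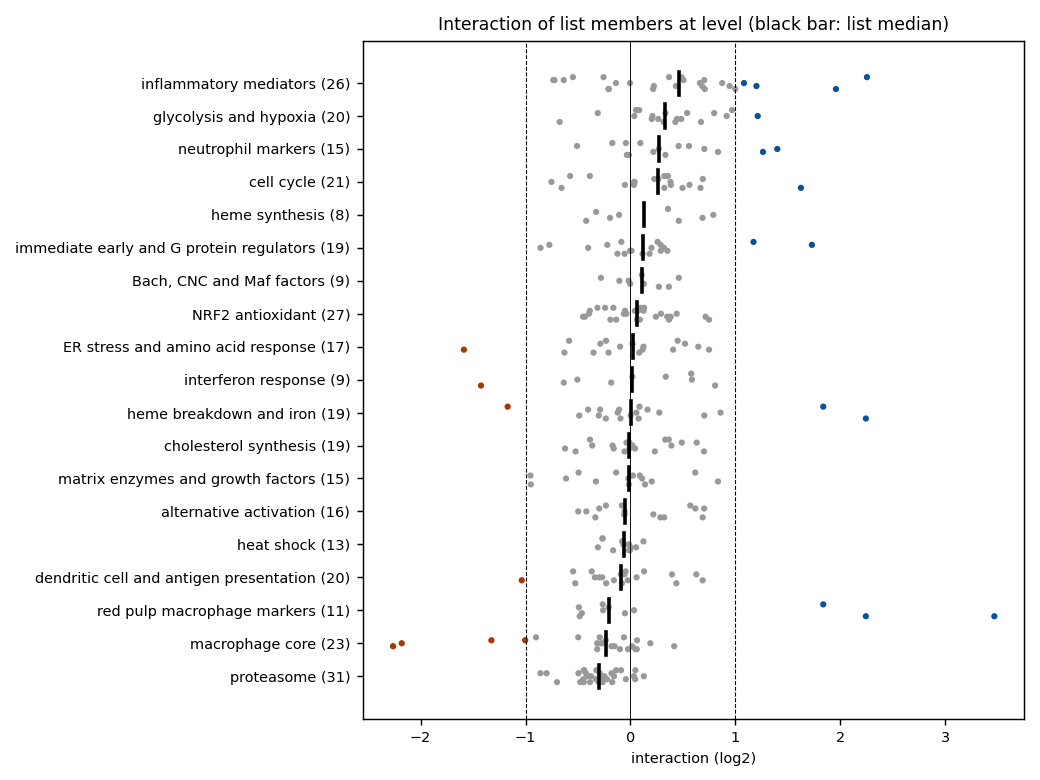
Interaction (log2) of each list member used, by gene list with the number of members in brackets; black bars are list medians, dashed lines the threshold, and coloured points lie beyond it. Medians run from 0.46 for inflammatory mediators to -0.30 for the proteasome, and single genes such as Spic, Hmox1, C1qa and Ms4a7 lie far from their list's median.

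In heme and iron handling, the large interactions were single genes within a list that did not shift. Of 19 used, 2 were higher, Hmox1 and Slc40a1 (0.879% of all genes used), and 1 was lower, Abcb6 (1.17%). The median was 0.00. The biliverdin reductases Blvra (-0.12) and Blvrb (-0.40), the ferritin chains Fth1 (0.16) and Ftl1 (0.09) and the transferrin receptor Tfrc (-0.23) were below the threshold. Tfrc read 72.8, 33.6, 55.5 and 30.2, lower with heme in both genotypes. The 8 heme synthesis genes used held no called member (2.04% of all genes used). Their median was 0.12, with Alas1, the first enzyme of the pathway, at 0.46. Of the 9 Bach, CNC and Maf factors none was called (2.04% of all genes used). Bach1 was at 0.37, the NRF2 inhibitor Keap1 at 0.46 and Nfe2l2, which encodes NRF2, at -0.28.

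Antigen presentation differed between genotypes with little interaction. Of 20 genes used, 1 had an interaction of -1 or less (1.17% of all genes used) and none of 1 or more (0.879%). The called gene was Cd86, a costimulatory ligand, which read 141, 127, 48.9 and 90.5 (-1.04). Its value was -0.99 with lowess centring and -0.72 with 32 added to every signal, both short of the threshold. The MHC class II gene H2-Aa read 2792, 2233, 751 and 725 (-0.27), and its 5 partner genes on the list were also below 0. The list's summed signal was 16067, 12975, 5555 and 4946, and the part of dendritic cell number in this was not tested.

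Other lists held at most 2 called genes each. Over all genes used, 0.879% were called higher and 1.17% lower, so 1 called gene already puts lists this short above those shares. In the cell cycle list 16 of 21 lay above 0 (45.6% of all genes used), with Cenpw called and a median of 0.26. Nr4a3 (1.17) and Id3 were called among 19 immediate early genes (median 0.12), Mthfd2 among 17 genes of the endoplasmic reticulum and amino acid stress response (0.02), and the antiviral enzyme Oas1a (-1.42) among 9 interferon response genes (0.02). With 32 added, Nr4a3 (0.61), Id3 (0.69), Mthfd2 (-0.98) and Oas1a (-0.98) were short of the threshold. No member was called among 19 cholesterol synthesis, 13 heat shock, 16 alternative activation or 15 matrix and growth factor genes (2.04% of all genes used). The cholesterol synthesis genes had median responses of -0.49 and -0.52. Of them, 0 and 4 were 2-fold or more lower in wild type and labelled knockout (0.861% and 0.439% of all genes used). Markers of other cell types held 1 gene used of 14 for B, T and natural killer cells, 1 of 10 for mast cells and basophils, 3 of 6 for erythroid cells and 5 of 13 for fibroblasts and endothelium, and none was called.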

How the data were processed

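RNA from 4 cultures was measured on a mouse whole-transcript array, 1 array per group. The deposited values are linear intensity after RMA (background correction, quantile normalization and probe set summary), which the authors ran, per the labels and the submitters' processing notes. No version was given. The series design text describes other cells and the program ArrayStar, does not match the sample labels, and was not followed.

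Values were taken to log2 with no further scaling. Of 35556 probe sets, the platform annotation listed 23410; 21789 carried 1 symbol, 1621 several, and 21698 matched the RefSeq table of GRCm38.p6. The brightest probe set was used for 999 genes with several. The call was 1 log2 unit with the brightest array at the median or above. The 23 gene lists hold 419 genes, of which 388 were measured and 31 were not analysed here. The question, members and lists were chosen with earlier results of these data known.

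Named genes were Bach1, Spic, Hmox1 and Slc40a1, the 12 largest interactions in each direction, 4 per array group, 10 kept responses, 3 per list, and list members that describe a role. Alternatives changed the fold threshold, the signal filter, an added constant, the normalization, the probe set rule and the rule for the array that stands apart. Kept responses under them were added after seeing the data. Computation was checked on simulated data and ran in Python 3.11.15 (pandas 2.3.3 and numpy 2.4.6, with lowess from statsmodels 0.14.6 and figures from matplotlib 3.10.9). The number of arrays limits the precision.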

Additional observations from a re-analysis of the deposited data

Results flagged for a closer look

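In 5 genes with large interactions the heme responses of the genotypes had opposite signs and were each at least 1.5-fold, and the difference was not tested. Phtf1os, an RNA named for the strand opposite Phtf1, had an interaction of 2.30, from responses of 0.66 (wild type) and -1.64 (labelled knockout). Cib3, of a family of calcium-binding proteins, had 2.01, from 1.23 and -0.78. Polr2k, a small subunit shared by RNA polymerases, read 47.6, 30.2, 22.2 and 64.2, with -2.19 from -0.66 and 1.53. Senp8, a protease for the ubiquitin-like protein NEDD8, had -1.82 from -1.15 and 0.67. Mterf4, a mitochondrial ribosome assembly factor, had -1.64 from -0.83 and 0.81. Phtf1os, Polr2k and Mterf4 were below the median signal on 2 of the 4 arrays, and Cib3 and Senp8 on 3.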

How the results depend on the processing

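No paired analysis was possible because each group had 1 array, and no array could be left out. In the order higher interaction, lower interaction, wild type with vehicle alone low, wild type with vehicle alone high, kept higher and kept lower, the counts were 98, 130, 16, 20, 45 and 16. At 1.5-fold they were 574, 699, 95, 122, 207 and 115, and at 3-fold 18, 15, 7, 2, 10 and 3. Without the signal filter 181 genes were higher. With the filter at the 75 percentile the first 4 counts were 25, 31, 6 and 7. With 32 added before log2, which shrinks differences of dim genes, the counts were 21, 13, 7, 3, 23 and 6. Requiring the array that stands apart to differ 2-fold from each other array left 7 and 8 for wild type with vehicle alone low and high.

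The higher share of called genes was 43.0%, 61.8% with 32 added and 54.5% at 3-fold. With 32 added, 34 of 228 called genes and 21 of 51 named ones remained called, including Spic (2.13), Hmox1 (2.22), Slc40a1 (1.33), Nos2 (1.38), Il6 (1.39), Cxcl2 (1.12), C1qa (-1.63) and Ms4a7 (-1.39). Those that did not included Cib3 (0.74), Id3 (0.69), Prtn3 (0.63), Mthfd2 (-0.98), Nr4a3 (0.61), Oas1a (-0.98), Cd86 (-0.72), Abcb6 (-0.64) and Bex1 (-0.21). A repeated quantile normalization kept 212 of the 228 calls, lowess centring 209, and the mean of probe sets 220. No called named value changed sign, and Saa3, near 0 at -0.01, was at 0.11, 0.01 and 0.07 with 32 added, a repeated quantile normalization and lowess centring. The list medians of inflammatory mediators (0.34 to 0.53), glycolysis and hypoxia (0.29 to 0.39), macrophage core (-0.24 to -0.16) and the proteasome (-0.30 to -0.23) kept their sign under these settings. The interaction had the lowest spread of the 3 contrasts in every setting (0.23 to 0.33). Without replicates, noise of a single array and a difference between genotypes cannot be told apart, and the spread of the interaction was widest among dim genes.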
